A study of Homo sapiens with 26 samples.

Results

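Chemokines are small secreted proteins that guide cell migration, and their receptors are membrane proteins of the G protein-coupled family. Their genes were followed here in macrophages and cardiomyocytes made from human embryonic stem cells. Members were chosen by name: each gene symbol in the 3 deposited count tables that begins with CCL, CXCL, CCR, CXCR, XCL or XCR followed by a number, plus CX3CL1, CX3CR1 and ACKR1 to ACKR4. This gave 60 members, 39 ligands and 21 receptors, of 22690 genes in all. Of these, 46 are listed for Biowire macrophages, 46 for digested controls and 47 for cardiomyocytes, with 32 listed for all 3. CCL4, the paralog of CCL4L1 and CCL4L2, was not analysed here.

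The study sorted cells from Biowires, engineered strips of human cardiac tissue, and sequenced their total RNA. Macrophages came from the wild-type hES2 line (MF) and cardiomyocytes from the wild-type ESI17 line (CM). FB is read here as fibroblasts, a word that the labels do not spell out. Macrophages were taken on day 14 from Biowires built of macrophages alone (MF), with fibroblasts (FB+MF) or with cardiomyocytes and fibroblasts (CM+FB+MF), 3 libraries each. The same 3 combinations exist as digested control cells, again 3 libraries each, whose only time label is a digestion of 40 min. The cardiomyocyte libraries are of day 3, 4 from Biowires without macrophages (CM+FB) and 4 from Biowires with them (CM+FB+MF). The protocol given for each group passes cells through enzymes with Flavopiridol, an inhibitor of transcription, and sorts them with antibodies to CD14 and CD45. Each cell type comes from 1 stem cell line, and no source says whether replicates are separate cultures. The p-values therefore reflect only the spread between these libraries, which may be technical.

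Chemokine ligands fall into CXC, CC, X and CX3C families by the spacing of their first cysteines, and most receptors bind several ligands of 1 family. In macrophages, many ligand genes are switched on by NF-kB after microbial or cytokine signals, and CXCL9, CXCL10 and CXCL11 are switched on by interferon. In the heart, CCL2 and its receptor CCR2 are known for recruiting monocytes, CXCL1, CXCL2 and CXCL8 for recruiting neutrophils, and CXCL12 with CXCR4 for retaining and placing progenitor cells.

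Levels below are in CPM, a gene's count scaled to the library's total, listed by replicate number, and means carry the SD. Columns of the digested and CM+FB+MF cardiomyocyte libraries were matched to their group by table, and their replicate numbers are those of the columns. Differences are log2 fold changes ± SE from edgeR's quasi-likelihood fit, with adjusted p over all genes tested (two-sided, Benjamini-Hochberg, threshold 0.05), and a member is called where its adjusted p is at most 0.05. Depth was 6983800 to 13665322 counts in the Biowire macrophage libraries, 10132651 to 12717157 in the digested controls and 12604684 to 30936910 in the cardiomyocytes. Each of the 18 listed macrophage markers was detected in the 6 macrophage groups, and their sums were 11526 to 17474 CPM in the Biowires. Fibroblast markers summed to 163, 170.0 and 309 CPM in Biowire MF, 433, 367 and 377 CPM in FB+MF and 353, 298 and 323 CPM in CM+FB+MF, with no overlap between MF and FB+MF, and to 97.4 to 105 CPM in digested MF and 739 to 3166 CPM in the digested mixtures. Cardiomyocyte markers came to between 1233 and 2930.5 CPM in macrophages of the CM+FB+MF Biowire and to at most 78.8 CPM in the other Biowire macrophages.

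Of the 60 members, 22 were called in at least 1 of the 7 comparisons within a table, and 19 of these also reached a mean of 5 CPM in a group. Another 13 reached a mean of 1 CPM in a group without such a call, and 25 stayed under 1 CPM in each group. Filtering on low counts left 36 members for testing in at least 1 table and 24 in no test. In the Biowires, FB+MF against MF had 7 of 26 tested members called, 3 higher and 4 lower, where 6.16% of all 13952 genes were called, 4.03% higher and 2.14% lower. CM+FB+MF against MF had 18 of 26 called, 10 higher and 8 lower, where 37.6% of all genes were called, 17.8% higher and 19.8% lower. For CM+FB+MF against FB+MF it was 12 of 26, 7 higher and 5 lower, where 35.5% of all genes were called, 16.4% higher and 19.1% lower. The median log2 fold change of the tested members was -0.35, -0.51 and -0.14 in these comparisons, against -0.01, 0.00 and 0.00 over all genes. The 3 comparisons share libraries and are not independent. FB+MF against MF had 3 members called when MF replicate 2 was left out, and 4 when MF replicate 3, FB+MF replicate 2 or FB+MF replicate 3 was.

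**Figure D1:**
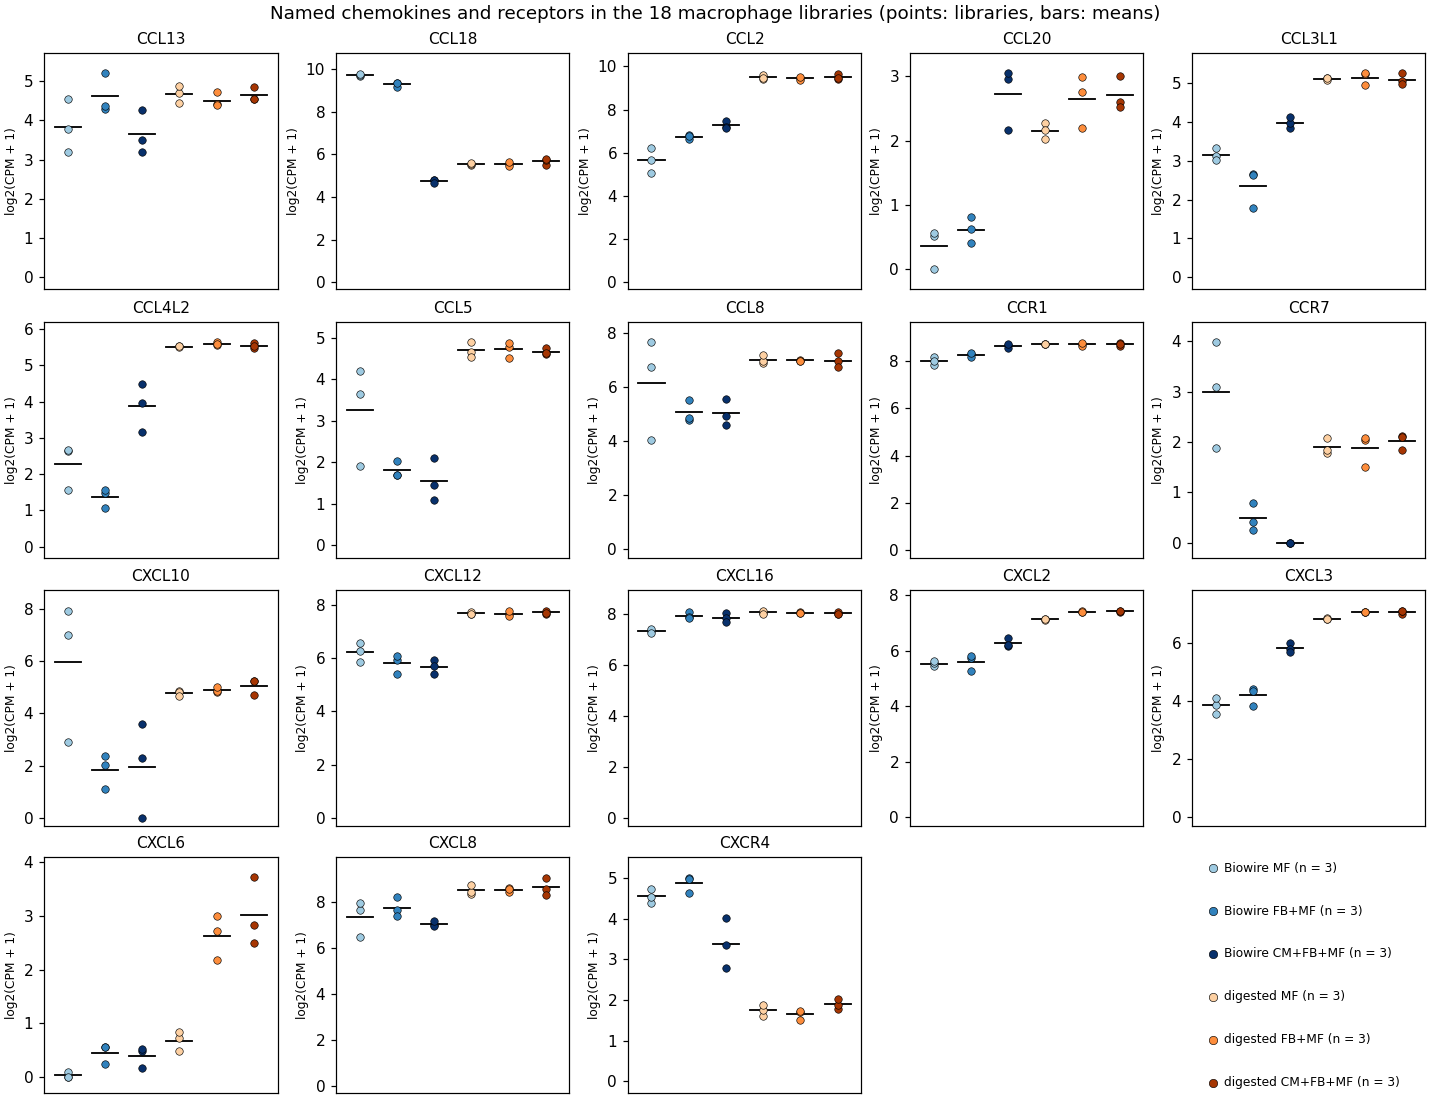
Levels of 18 members called within a table that reach 5 CPM, as log2(CPM + 1), in 18 macrophage libraries (points, 3 per group, bars are group means). CCL18 is at 824 to 876 CPM in Biowire MF and 24.1 to 27.0 CPM in Biowire CM+FB+MF, while CXCL10, CCL8, CCL5 and CCR7 spread widely within Biowire MF.

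Ligands that draw neutrophils through CXCR1 and CXCR2 included 3 that rose in the 3-cell Biowire. Of 6 such members, 5 were tested, and CXCL2, CXCL3 and CXCL5 rose in CM+FB+MF against MF with none lower, where 17.8% of all genes were called higher. CXCL3 stood at 13.6, 10.8 and 16.3 CPM in MF, 13, 20.3 and 19.1 CPM in FB+MF and 63.0, 54.1 and 50.8 CPM in CM+FB+MF. Each CM+FB+MF library lay above each library of the other groups, and MF and FB+MF overlapped. CXCL3 rose by 2.05 ± 0.20 against MF (adjusted p = 2.81e-06) and by 1.65 ± 0.20 against FB+MF (adjusted p = 2.56e-05). CXCL2, a close relative encoded in the same cluster on chromosome 4, had 42.2, 45.9 and 48.6 CPM in MF, 37.7, 52.7 and 54.7 CPM in FB+MF and 71.3, 86.2 and 72.0 CPM in CM+FB+MF. Its order of groups was that of CXCL3, with a smaller rise of 0.74 ± 0.14 against MF (adjusted p = 0.00106) and 0.63 ± 0.14 against FB+MF (adjusted p = 0.00409). CXCL1 did not pass the test in any Biowire comparison, with 141, 127 and 171 CPM in MF, 123, 156 and 158 CPM in FB+MF and 143, 123 and 121 CPM in CM+FB+MF, and the 3 groups overlapped. The CM+FB+MF libraries also carried the cardiomyocyte transcripts given above, whose part in these rises was not tested. In bulk RNA, more cells expressing a gene and more RNA per cell cannot be told apart.

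CXCL1, CXCL2 and CXCL3 share sequence, so reads may have been split among them. Of the 50-base windows of their GENCODE transcripts, 4.8% for CXCL1, 12.5% for CXCL2 and 6.0% for CXCL3 occur also in another gene. CXCL8, the main human neutrophil attractant, had 89.0, 201 and 245 CPM in MF, 296, 198 and 168 CPM in FB+MF and 128, 123 and 142 CPM in CM+FB+MF. CXCL8 was lower in CM+FB+MF than in FB+MF, with a difference of -0.80 ± 0.27 (adjusted p = 0.0370), the opposite direction to CXCL2 and CXCL3, while MF overlapped both. That CXCL8 call was lost with DESeq2 (adjusted p = 0.098), without FB+MF replicate 1 (-0.51, adjusted p = 0.169) and without CM+FB+MF replicate 1 (adjusted p = 0.0783), 2 (adjusted p = 0.103) or 3 (adjusted p = 0.0819). Against MF the CXCL8 difference passed the test only without MF replicate 1 (-0.75, adjusted p = 0.00633). CXCL5, another ligand of CXCR2, was called higher with fibroblasts, by 3.06 ± 0.76 in FB+MF (adjusted p = 0.0284) and 2.43 ± 0.78 in CM+FB+MF (adjusted p = 0.0242) against MF. It remained scarce, at 0.363, 0.146 and 0.194 CPM in MF, 2.09, 1.22 and 2.44 CPM in FB+MF and 0.808, 1.87 and 1.15 CPM in CM+FB+MF. The CXCL5 call in FB+MF was lost without FB+MF replicate 1, 2 or 3 (adjusted p = 0.0918, 0.0536 and 0.106) and without MF replicate 2 or 3 (adjusted p = 0.148 and 0.136). That in CM+FB+MF was lost without CM+FB+MF replicate 2 (adjusted p = 0.101), without MF replicate 2 or 3 (adjusted p = 0.107 and 0.0872) and without the filter on low counts (adjusted p = 0.0545). The fibroblast markers given above were higher in FB+MF than in MF as well, and their part in the CXCL5 difference was not tested.

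The start regions of 4 genes of this group are shown because CXCL2 and CXCL3 rose in the 3-cell Biowire, CXCL1 did not, and CXCL6, too scarce to be tested there, was higher in the digested mixtures. Each holds a kappaB consensus, the motif bound by NF-kB dimers, in the 250 bases before the RefSeq start (GRCh38.p14). The consensus, searched on both strands and by its name alone here, is in 9.96% of 35116 RefSeq promoters of that length. The letters below are 25 bases on each side of the match, from chr4:73869289-73869349 (+) for CXCL1, chr4:74099238-74099298 (-) for CXCL2, chr4:74038733-74038793 (-) for CXCL3 and chr4:73836563-73836623 (+) for CXCL6. Capitals mark the match, which covers overlapping hits on both strands.
CXCL1: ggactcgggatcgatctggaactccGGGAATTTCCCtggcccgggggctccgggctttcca
CXCL2: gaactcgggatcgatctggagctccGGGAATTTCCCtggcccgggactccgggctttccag
CXCL3: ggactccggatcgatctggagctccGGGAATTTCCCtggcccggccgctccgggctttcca
CXCL6: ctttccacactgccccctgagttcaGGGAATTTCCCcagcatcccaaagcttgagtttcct
The matched letters are the same in the 4 genes, and the match begins 79 bases before the start in CXCL1 and CXCL3, 78 in CXCL2 and 90 in CXCL6. Of the other ligands of the group, CXCL5 holds a match that begins 91 bases before its start, and CXCL8 holds no match as searched. A match describes these letters and shows no binding.

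**Figure D2:**
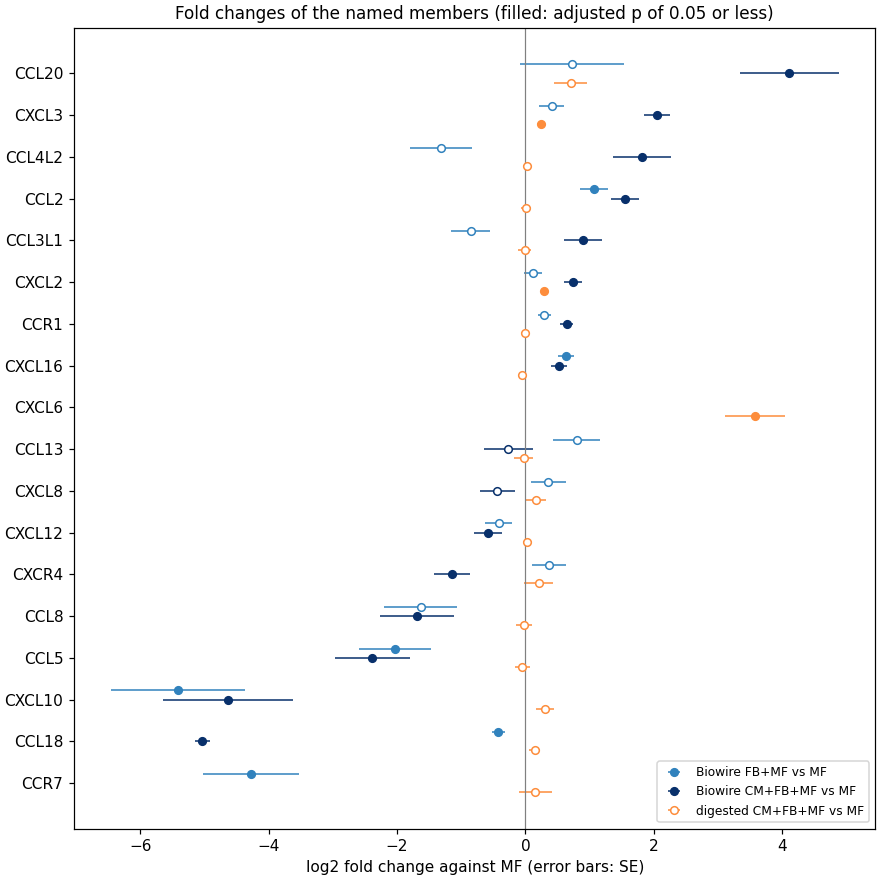
Log2 fold changes against MF (x axis, bars are SE) for the same 18 members in Biowire FB+MF, Biowire CM+FB+MF and digested CM+FB+MF macrophages, with filled points for adjusted p of 0.05 or less. CCR7 in Biowire CM+FB+MF, at 0 counts, is left out, and CXCL6, not tested in the Biowires, has a digested point only. CXCL3 sits at 2.05 in Biowire CM+FB+MF and at 0.24 in the digested mixture.

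CXCL10 and CXCL11, ligands of the T cell receptor CXCR3, were high in 2 of 3 Biowire MF libraries and low in the other groups. CXCL10 had 6.53, 242 and 126 CPM in MF, 4.10, 1.12 and 3.07 CPM in FB+MF and 10.9, 3.85 and 0 CPM in CM+FB+MF. MF replicates 2 and 3 stood far above the rest, and MF replicate 1 lay within the range of CM+FB+MF. CXCL10 fell by 5.42 ± 1.04 in FB+MF (adjusted p = 0.00612) and by 4.63 ± 1.01 in CM+FB+MF (adjusted p = 0.00256) on the log2 scale. Without MF replicate 2 the differences were -4.49 (adjusted p = 0.0226) and -3.67 (adjusted p = 0.0126), and without CM+FB+MF replicate 1 or 3 the second was -5.95 or -4.04. CXCL11 followed the same libraries, at 0, 20.9 and 8.55 CPM in MF, 3 counts in the FB+MF group and 0 in CM+FB+MF, but did not pass the low-count filter in that table. Its counts were 132 times higher in MF than in FB+MF (95% counting interval 44.8 to 642) and at least 86.6-fold higher than in CM+FB+MF, by a floor of 3 counts over the group. Without MF replicate 2 these were 54.0 times (interval 17.9 to 267) and at least 35.5-fold, and without FB+MF replicate 1 the first was 252 times (interval 44.9 to 9971). Without CM+FB+MF replicate 2 the second was at least 55.6-fold. Intervals and floors cover counting error only. CXCL9, the third ligand of CXCR3, stayed under 1 CPM in each group mean. It had 0, 1.68 and 0.874 CPM in MF and 0 counts in FB+MF and CM+FB+MF.

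The libraries with high CXCL10 also had high sums over 26 interferon-stimulated genes. Those sums were 3061, 9746 and 6762 CPM in MF, 5879, 1824 and 2081 CPM in FB+MF and 1945, 1296 and 1087 CPM in CM+FB+MF. MF replicates 2 and 3 are the 2 highest of the 9, with FB+MF replicate 1 next, although CXCL10 was at 4.10 CPM there. Because the spread lies within the MF group, the part of interferon signalling in the differences between groups was not tested. STAT2, a transcription factor of the type I interferon response that is itself among the 26 genes, differed in CM+FB+MF against MF by -1.04 ± 0.18 (adjusted p = 4.62e-04). In FB+MF against MF the STAT2 difference of -0.50 ± 0.18 missed the threshold (adjusted p = 0.134).

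**Figure D3:**
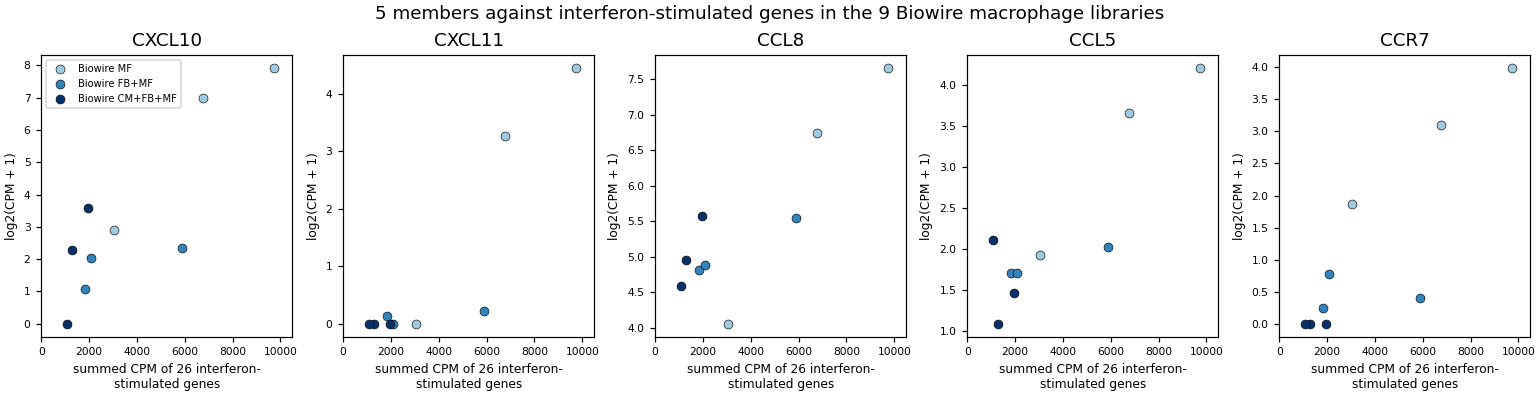
Levels of CXCL10, CXCL11, CCL8, CCL5 and CCR7 as log2(CPM + 1) against the summed CPM of 26 interferon-stimulated genes in the 9 Biowire macrophage libraries (1 point per library). Biowire MF replicates 2 and 3, with sums of 9746 and 6762 CPM, are the highest points in each panel.

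The CXCL10 start region is shown because it holds both kinds of motif. An interferon-stimulated response element, searched on both strands as GAAA, any 2 bases and GAAA, is in 3.02% of the 35116 promoters. Among the 19 members called at 5 CPM or more, 12 have a RefSeq promoter entry, of which 1 holds this element and 5 hold the kappaB consensus. In CXCL10, at chr4:76023498-76023747 (-, GRCh38.p14), the element begins 221 bases before the start and kappaB matches begin 177 and 122 bases before it. The CXCL11 region, at chr4:76036071-76036320 (-), holds 1 kappaB match 76 bases before the start and no match to the element as searched. Capitals mark the matches in these 250 bases.
CXCL10: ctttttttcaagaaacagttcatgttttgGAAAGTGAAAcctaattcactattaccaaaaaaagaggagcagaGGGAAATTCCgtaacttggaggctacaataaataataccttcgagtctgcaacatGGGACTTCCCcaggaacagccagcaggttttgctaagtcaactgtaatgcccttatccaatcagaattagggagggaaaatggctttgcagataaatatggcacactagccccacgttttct
CXCL11: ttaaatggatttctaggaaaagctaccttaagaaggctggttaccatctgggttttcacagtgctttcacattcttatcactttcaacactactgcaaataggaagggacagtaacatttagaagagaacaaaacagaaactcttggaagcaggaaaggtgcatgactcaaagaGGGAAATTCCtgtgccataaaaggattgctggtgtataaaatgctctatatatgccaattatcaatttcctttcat

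Ligands kept at steady levels in many tissues, CXCL12 and CXCL16, were both detected in each macrophage library. CXCL16, a membrane-bound ligand of CXCR6 that also takes up oxidised lipid, had 162, 171 and 152 CPM in MF, 268, 237 and 229 CPM in FB+MF and 261, 229 and 209 CPM in CM+FB+MF. MF lay below both mixed groups with no overlap. CXCL16 rose by 0.63 ± 0.12 in FB+MF (adjusted p = 0.00567) and by 0.52 ± 0.12 in CM+FB+MF (adjusted p = 0.00371). Fibroblast marker sums were higher in FB+MF than in MF, as given above, and the 18 macrophage markers summed to 11526 to 13252 CPM in MF, 15712 to 17290.1 CPM in FB+MF and 16159.7 to 17474 CPM in CM+FB+MF, with MF again lowest without overlap. The part of either in the CXCL16 rise was not tested. CXCL12, the ligand of CXCR4, had 95.1, 76.8 and 56.9 CPM in MF, 41.5, 60.5 and 66.2 CPM in FB+MF and 60.3, 50.7 and 41.8 CPM in CM+FB+MF. The groups overlapped, and the difference of -0.59 ± 0.22 in CM+FB+MF against MF was close to the threshold (adjusted p = 0.0480). The CXCL12 call was lost with RLE size factors (adjusted p = 0.0603), without MF replicate 1 (-0.37, adjusted p = 0.199) or 2 (adjusted p = 0.1) and without CM+FB+MF replicate 2 (adjusted p = 0.119) or 3 (adjusted p = 0.201).

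Among ligands of CCR2 and CCR3, which draw monocytes and eosinophils, CCL2 rose while CCL8 and CCL24 fell in the 3-cell Biowire. CCL2, the main monocyte attractant, had 32.5, 74.5 and 49.6 CPM in MF, 112, 98.4 and 110.1 CPM in FB+MF and 175, 146 and 140.0 CPM in CM+FB+MF. The 3 groups did not overlap, in the order MF, FB+MF, CM+FB+MF. CCL2 rose by 1.07 ± 0.21 in FB+MF (adjusted p = 0.00804) and by 1.55 ± 0.22 in CM+FB+MF (adjusted p = 7.31e-05) against MF. Fibroblast markers were higher in FB+MF than in MF too, without overlap, and their part in the CCL2 rise was not tested. Between CM+FB+MF and FB+MF it differed by 0.49 ± 0.21, which missed the threshold (adjusted p = 0.0876) but passed it with DESeq2 (adjusted p = 0.0388) and in a fit of those groups alone (adjusted p = 0.00733). CCL8 had 15.6, 202 and 106 CPM in MF, 45.5, 27.0 and 28.5 CPM in FB+MF and 46.6, 30.0 and 23.1 CPM in CM+FB+MF. As for CXCL10, MF replicates 2 and 3 were high and MF replicate 1 was low, below each library of the other groups. CCL8 fell by 1.69 ± 0.58 in CM+FB+MF (adjusted p = 0.0344). The call was lost without MF replicate 2 (-0.83, adjusted p = 0.251) or 3 (adjusted p = 0.0619), without CM+FB+MF replicate 2 (adjusted p = 0.107) or 3 (adjusted p = 0.13), and with DESeq2 (adjusted p = 0.0868). In FB+MF the CCL8 difference of -1.63 ± 0.57 missed the threshold (adjusted p = 0.127) but passed it without MF replicate 1 (-2.12, adjusted p = 7e-04) and without the filter on low counts (adjusted p = 0.0103).

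CCL13, another ligand of CCR2 and CCR3, had 8.11, 22.5 and 12.7 CPM in MF, 35.9, 18.6 and 19.6 CPM in FB+MF and 10.2, 8.21 and 18.2 CPM in CM+FB+MF. It was lower in CM+FB+MF than in FB+MF, with a difference of -1.07 ± 0.38 (adjusted p = 0.0405), with MF between and overlapping both. That call was lost without FB+MF replicate 1 (-0.68, adjusted p = 0.195) and without CM+FB+MF replicate 1 (adjusted p = 0.11) or 2 (adjusted p = 0.141). CCL24, an eosinophil attractant, had 1.69, 1.1 and 1.85 CPM in MF, 0.563, 0.375 and 1.08 CPM in FB+MF and 3 counts in CM+FB+MF, all in replicate 3. Its level in MF was 11.1 times that in CM+FB+MF (95% counting interval 3.59 to 55.9, adjusted p = 0.0230). Without CM+FB+MF replicate 3 the ratio became a floor, at least 7.68-fold, and the call held. The call was lost without CM+FB+MF replicate 1 (7.46 times, adjusted p = 0.0791) or 2 (7.15 times, adjusted p = 0.0872) and without MF replicate 3 (9.90 times, adjusted p = 0.0661).

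CCL18, a CC ligand with no mouse counterpart that is made by alternatively activated human macrophages, fell steeply with cardiomyocytes present. CCL18 had 824, 852 and 876 CPM in MF, 642, 566 and 652 CPM in FB+MF and 26.8, 27.0 and 24.1 CPM in CM+FB+MF. The libraries of a group lay close together and the 3 groups did not overlap. CCL18 fell by 0.42 ± 0.10 in FB+MF against MF (adjusted p = 0.0172), by 5.04 ± 0.12 in CM+FB+MF against MF (adjusted p = 8.34e-12) and by 4.62 ± 0.11 in CM+FB+MF against FB+MF (adjusted p = 2.48e-11). With each library left out in turn, the CM+FB+MF differences ran from -5.08 to -4.96 against MF and from -4.69 to -4.53 against FB+MF. The smaller fall in FB+MF lost its call without FB+MF replicate 2 (adjusted p = 0.133) or 3 (adjusted p = 0.0551) and without MF replicate 2 (adjusted p = 0.0625) or 3 (adjusted p = 0.0567). Macrophage markers in the same libraries summed to 12865, 13252 and 11526 CPM in MF, 17290.1, 15712 and 16239 CPM in FB+MF and 17474, 16159.7 and 16931 CPM in CM+FB+MF, and their part in the CCL18 differences was not tested.

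CCL3L1 and CCL4L2, CC ligands made early by activated macrophages, were lowest in FB+MF and highest in CM+FB+MF. CCL4L2 had 5.20, 1.98 and 5.34 CPM in MF, 1.77, 1.97 and 1.08 CPM in FB+MF and 14.5, 7.96 and 21.5 CPM in CM+FB+MF. It rose by 3.13 ± 0.48 in CM+FB+MF against FB+MF (adjusted p = 2.29e-04) and by 1.82 ± 0.45 against MF (adjusted p = 0.00562). The CM+FB+MF libraries lay above those of both other groups, and FB+MF lay below MF without passing the test (adjusted p = 0.147). CCL3L1 had 7.74, 9.0 and 7.09 CPM in MF, 2.41, 5.34 and 5.23 CPM in FB+MF and 13.5, 14.7 and 16.6 CPM in CM+FB+MF, in the same order and again without overlap. CCL3L1 rose by 1.75 ± 0.31 against FB+MF (adjusted p = 6.36e-04) and by 0.90 ± 0.30 against MF (adjusted p = 0.0286). The CCL3L1 call against MF was lost without CM+FB+MF replicate 2 (adjusted p = 0.0627) or 3 (adjusted p = 0.0797) and without MF replicate 1 (adjusted p = 0.0514) or 3 (adjusted p = 0.0968). Both genes are copies whose counts are uncertain, since 5.0% of CCL3L1 windows of 50 bases occur also in CCL3 and 12.1% of CCL4L2 windows in CCL4. The search found no CCL4L2 windows in CCL4L1, which was counted as well, so these shares may understate the uncertainty. CCL3 itself was not called in any comparison within a table, at 1.94, 3.44 and 3.01 CPM in MF, 0.402, 1.03 and 2.25 CPM in FB+MF and 2.02, 0.373 and 3.01 CPM in CM+FB+MF. CCL4L1 held at most 1.75 CPM in a Biowire library and was not tested there.

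CCL5, a ligand of CCR1 and CCR3, had 2.78, 17.6 and 11.7 CPM in MF, 3.06, 2.25 and 2.25 CPM in FB+MF and 1.75, 1.12 and 3.29 CPM in CM+FB+MF. MF replicates 2 and 3 were again the high libraries, and MF replicate 1 overlapped both other groups. CCL5 fell by 2.03 ± 0.56 in FB+MF (adjusted p = 0.0455) and by 2.39 ± 0.58 in CM+FB+MF (adjusted p = 0.00533). The first call was lost in a fit of the compared groups alone (adjusted p = 0.0551), without FB+MF replicate 1 (adjusted p = 0.0739), 2 (adjusted p = 0.15) or 3 (adjusted p = 0.141) and without MF replicate 2 (-1.46, adjusted p = 0.258) or 3 (adjusted p = 0.124). Of CCL5 windows of 50 bases, 13.9% occur also in transcripts of 288 other genes, so some CCL5 reads may have been left uncounted or assigned elsewhere.

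CCL20, which draws cells through CCR6, was nearly absent from the MF and FB+MF Biowires. It had 0, 0.439 and 0.486 CPM in MF, 0.322, 0.750 and 0.541 CPM in FB+MF and 3.50, 6.72 and 7.30 CPM in CM+FB+MF. Each CM+FB+MF library exceeded each of the other 6. CCL20 rose by 4.11 ± 0.77 against MF (adjusted p = 8.90e-04) and by 3.38 ± 0.73 against FB+MF (adjusted p = 0.00287). IL1B, the cytokine interleukin 1 beta from a list of regulators of chemokine genes, rose in the same libraries by 4.31 ± 0.42 against MF (adjusted p = 3.06e-06). TNF, IL1A and IL6 of that list were not called there (adjusted p = 0.0605, 0.369 and 0.138). Against FB+MF, IL1B rose by 3.01 ± 0.38 (adjusted p = 4.54e-05) and TNF by 2.37 ± 0.38 (adjusted p = 3.02e-04). IL1A and IL6 were not called against FB+MF (adjusted p = 0.525 and 0.941). The part of IL1B or TNF in the CCL20 rise was not tested. Of the other barrier and lymphoid ligands, CCL28 was tested and not called in the Biowires. CCL22 reached 1.85, 0.937 and 0.541 CPM in FB+MF and was not tested.

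Of the receptors, 4 CC and 2 CXC members could be tested in the Biowires. CCR1, a receptor of CCL3 and CCL5, had 229, 286 and 257 CPM in MF, 311, 290.2 and 319.9 CPM in FB+MF and 413, 372 and 425 CPM in CM+FB+MF. The 3 groups did not overlap. CCR1 rose by 0.64 ± 0.10 in CM+FB+MF against MF (adjusted p = 2.37e-04) and by 0.35 ± 0.10 against FB+MF (adjusted p = 0.0160), the second call being lost without CM+FB+MF replicate 1 (adjusted p = 0.0581) or FB+MF replicate 2 (adjusted p = 0.0872). The macrophage markers, whose sums were lowest in MF as given with CXCL16, and the cardiomyocyte markers were also higher in CM+FB+MF than in MF without overlap, and their part in the CCR1 rise was not tested.

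CCR7, the receptor that leads dendritic cells and T cells to lymph nodes, went the other way. It had 2.66, 14.9 and 7.57 CPM in MF, 0.322, 0.187 and 0.722 CPM in FB+MF and no count in the 3 CM+FB+MF libraries. No library of a mixed group reached the lowest MF library. CCR7 fell by 4.28 ± 0.75 in FB+MF (adjusted p = 0.00517), and the call was lost without MF replicate 2 (-3.55, adjusted p = 0.052). By the floor of 3 counts over the group, CCR7 was at least 70.6-fold lower in CM+FB+MF than in MF (adjusted p = 1.46e-04) and at least 3.06-fold lower than in FB+MF (adjusted p = 0.0416). The floor against MF fell to 40.3-fold without MF replicate 2 and to 45.3-fold without CM+FB+MF replicate 2, and that against FB+MF to 1.94-fold without FB+MF replicate 3 and 1.97-fold without CM+FB+MF replicate 2. The call against FB+MF was lost without FB+MF replicate 1 (adjusted p = 0.0599) or 3 (adjusted p = 0.103), and without CM+FB+MF replicate 1 (adjusted p = 0.0846), 2 (adjusted p = 0.0949) or 3 (adjusted p = 0.0892).

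CXCR4, the receptor of CXCL12, had 25.8, 20.0 and 22.2 CPM in MF, 23.8, 31.3 and 30.5 CPM in FB+MF and 15.4, 9.20 and 5.87 CPM in CM+FB+MF. The CM+FB+MF libraries were the lowest, and MF and FB+MF overlapped. CXCR4 fell by 1.15 ± 0.28 against MF (adjusted p = 0.00525) and by 1.52 ± 0.28 against FB+MF (adjusted p = 9.21e-04). CCR2, the receptor of CCL2, reached a mean of 0.182 CPM in Biowire FB+MF at most, and CX3CR1, the receptor of CX3CL1, is listed in the cardiomyocyte table alone. The atypical receptors, which take up ligands without G protein signalling, were not tested in the Biowire macrophages, where ACKR4 had 0.404, 1.87 and 3.01 CPM in CM+FB+MF.

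The digested controls hold the same 3 combinations, and few members differed among them. FB+MF against MF had 2 of 26 tested members called, both higher, where 1.6% of all 12960 genes were called, none of them lower. CM+FB+MF against MF had 3, all higher, where 2.69% of all genes were called. CM+FB+MF against FB+MF had 0 members called and 0 with an unadjusted p under 0.05, by edgeR, where 0.239% of all genes were called, and DESeq2 called 0 members as well.

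CXCL6, a neutrophil attractant made by many stromal cells, had 0.653, 0.786 and 0.395 CPM in digested MF, 5.55, 6.98 and 3.51 CPM in FB+MF and 6.14, 4.64 and 12.1 CPM in CM+FB+MF. The mixed groups did not overlap MF. CXCL6 was higher by 3.07 ± 0.48 in FB+MF (adjusted p = 0.00535) and by 3.58 ± 0.46 in CM+FB+MF (adjusted p = 7.35e-04). Fibroblast markers were also higher in the mixed groups, at 97.4, 105 and 100.0 CPM in MF, 1562, 1329 and 872 CPM in FB+MF and 1359, 739 and 3166 CPM in CM+FB+MF. Their part in the difference was not tested. CM+FB+MF replicate 3 has both the most CXCL6 and the highest marker sum. Within FB+MF the most CXCL6 was in replicate 2 and the highest marker sum in replicate 1. In digested MF, 6 of the 14 fibroblast markers are at 0, namely DCN, LUM, POSTN, THY1, FBLN1 and TCF21, and COL1A2 gives 88.9 CPM of the sum.

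CXCL2 had 142, 136 and 142 CPM in digested MF, 168, 172 and 167 CPM in FB+MF and 169, 174 and 171 CPM in CM+FB+MF. The mixed groups did not overlap MF, with differences of 0.27 ± 0.05 in FB+MF (adjusted p = 0.0145) and 0.29 ± 0.05 in CM+FB+MF (adjusted p = 0.00481). In the Biowires CXCL2 differed by 0.12 ± 0.14 in FB+MF against MF, which did not pass the test (adjusted p = 0.753), and by the 0.74 given above in CM+FB+MF. CXCL3 had 112, 115 and 112 CPM in digested MF, 133, 131 and 132 CPM in FB+MF and 127, 136 and 137 CPM in CM+FB+MF, with a call of 0.24 ± 0.05 in CM+FB+MF (adjusted p = 0.0351). CXCL1 had 326, 328 and 325 CPM in digested MF, 373, 348 and 345 CPM in FB+MF and 355, 382 and 377 CPM in CM+FB+MF. Its mixed groups also lay above MF without overlap, but CXCL1 was not called. Cardiomyocyte markers summed to 44.7, 30.6 and 39.9 CPM in digested MF, 35.7, 39.3 and 31.1 CPM in FB+MF and 385, 242 and 439 CPM in CM+FB+MF, and their part and that of the fibroblast markers in these differences were not tested. The CXCL2 call in FB+MF was lost without FB+MF replicate 1 (adjusted p = 0.0831), 2 (adjusted p = 0.0923) or 3 (adjusted p = 0.0554) and without MF replicate 1 (adjusted p = 0.0716) or 2 (adjusted p = 0.0963), which left 1 member called in each case. The CXCL3 call was lost in a fit of the compared groups alone (adjusted p = 0.184), without MF replicate 1 (adjusted p = 0.165), 2 (adjusted p = 0.0936) or 3 (adjusted p = 0.0901) and without CM+FB+MF replicate 2 (adjusted p = 0.0624) or 3 (adjusted p = 0.167).

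Setting the 14-day Biowire beside the digested control asked how levels differed between the settings. Setting, culture time and table cannot be told apart here, and both tables went into 1 fit of 18 libraries. For MF, 22 of 30 tested members were called, 6 higher and 16 lower in the Biowire, where 46% of all 14381 genes were called, 23.2% higher and 22.8% lower. For FB+MF it was 25, 4 higher and 21 lower, where 47.1% of all genes were called, 23.1% higher and 24% lower. The CM+FB+MF groups had 24, 3 higher and 21 lower, where 50.5% were called, 24.4% higher and 26.1% lower. The ligands together made up 1814 ± 325 CPM of MF, 1538 ± 91.4 CPM of FB+MF and 949.97 ± 75.7 CPM of CM+FB+MF libraries from Biowires (n = 3 each). The same sums were 2490.3 ± 79.5, 2553 ± 79.1 and 2652 ± 225 CPM in the digested groups. Of the Biowire ligand sums, CCL18 alone gave 824 to 876 CPM in MF, 566 to 652 CPM in FB+MF and 24.1 to 27.0 CPM in CM+FB+MF. Receptors summed to 299.6 ± 34.3, 343 ± 17.7 and 434 ± 27.9 CPM in the Biowires and to 435 ± 4.01, 429.5 ± 21.4 and 435 ± 19.1 CPM in the digested groups, CCR1 giving most of it.

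CCL2 was lower in the Biowire with no overlap. It ran from 667 to 807 CPM over the 9 digested libraries and from 32.5 to 175 CPM over the 9 Biowire libraries. The Biowire level differed by -3.98 ± 0.20 in MF (adjusted p = 2.99e-12), -2.86 ± 0.19 in FB+MF (adjusted p = 1.56e-10) and -2.44 ± 0.18 in CM+FB+MF (adjusted p = 1.17e-09). CCL4L2 ran from 43.8 to 48.8 CPM in the digested libraries and differed in the Biowire by -3.67 ± 0.28, -5.02 ± 0.32 and -1.84 ± 0.25 in the 3 groups. CXCL3 ran from 112 to 137 CPM in the digested libraries, and its Biowire difference was -3.27 ± 0.15 in MF and -1.44 ± 0.14 in CM+FB+MF. For CCL20, digested libraries held 3.06 to 7.01 CPM, above the MF and FB+MF Biowires and overlapping the CM+FB+MF Biowire, where the difference of -0.14 ± 0.38 did not pass the test (adjusted p = 0.778).

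CXCR4 was higher in each Biowire group, and CCL18 in MF and FB+MF. CCL18 ran from 42.8 to 54.5 CPM in the digested libraries. It was higher in the Biowire by 4.02 ± 0.10 in MF (adjusted p = 2.31e-16) and 3.61 ± 0.10 in FB+MF (adjusted p = 2.11e-15), and lower in CM+FB+MF, with a difference of -1.15 ± 0.10 (adjusted p = 1.29e-08). CXCR4 ran from 1.84 to 3.05 CPM in the digested libraries. It was higher in the Biowire by 3.06 ± 0.28, 3.58 ± 0.28 and 1.72 ± 0.28 in MF, FB+MF and CM+FB+MF. CXCL12 ran from 189 to 221 CPM in the digested libraries, and differed in the Biowire by -1.62 ± 0.18, -2.01 ± 0.18 and -2.23 ± 0.18. CXCL10 was higher in Biowire than in digested MF by 2.03 ± 0.67 (adjusted p = 0.0180), with overlapping libraries. That call was lost with DESeq2 (adjusted p = 0.118), in a fit of the compared groups alone (adjusted p = 0.0543), without Biowire MF replicate 2 (1.09, adjusted p = 0.207) and without digested MF replicate 1 (adjusted p = 0.0508), 2 (adjusted p = 0.0539) or 3 (adjusted p = 0.0557). In the mixed groups CXCL10 was lower in the Biowire, without overlap. It ran from 1.12 to 4.10 CPM in Biowire FB+MF and from 27.0 to 31.1 CPM in digested FB+MF. The CM+FB+MF libraries held 0 to 10.9 CPM in the Biowire and 24.7 to 36.9 CPM in the digested control.

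**Figure D4:**
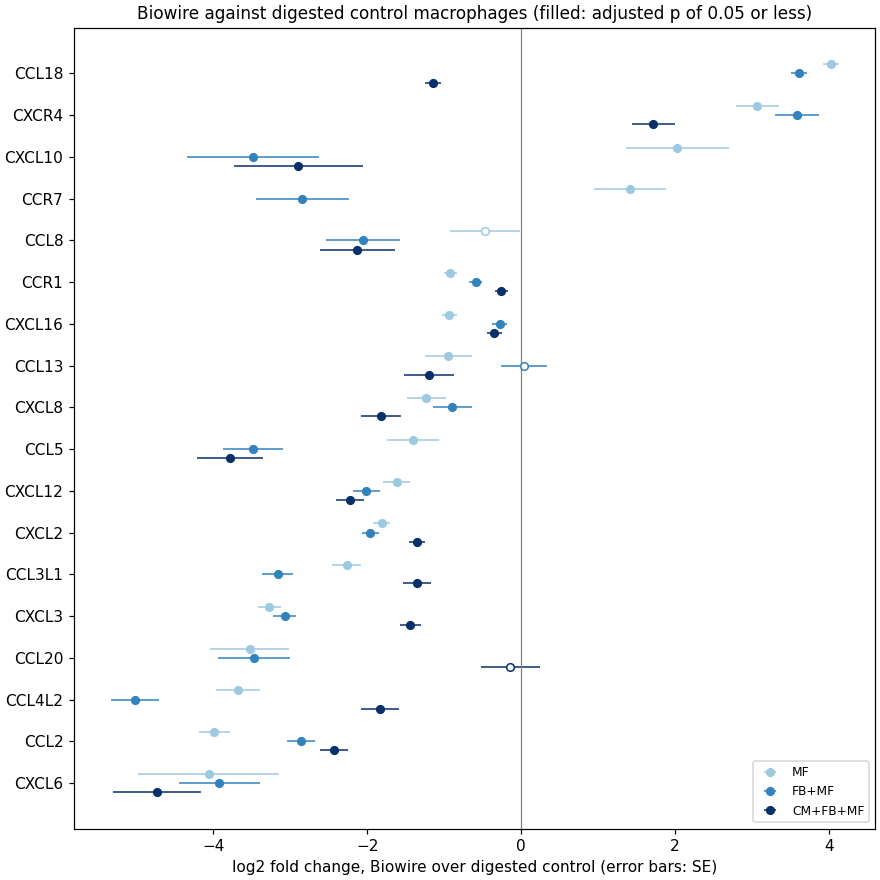
Log2 fold changes of Biowire over digested control macrophages (x axis, bars are SE) in MF, FB+MF and CM+FB+MF, with filled points for adjusted p of 0.05 or less and CCR7 in CM+FB+MF, at 0 counts in the Biowire, left out. CCL18 is at 4.02 in MF and -1.15 in CM+FB+MF, and CCL2 is below 0 in each group.

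Interactions tested whether the difference between cell combinations was itself different in the Biowire and the digested setting. For FB+MF against MF, 7 of 30 tested members were called (3 higher, 4 lower), where 4.84% of all genes were (2.72% higher, 2.12% lower). For CM+FB+MF against MF it was 16 (9 higher, 7 lower), where 31.2% were (14.4% higher, 16.8% lower). For CM+FB+MF against FB+MF it was 12 (8 higher, 4 lower), where 28.4% were (13.2% higher, 15.1% lower). The CCL18 interaction was -5.17 ± 0.14 for CM+FB+MF against MF (adjusted p = 2.77e-15), since the digested groups held 44.6, 45.5 and 46.9 CPM in MF and 44.5, 52.4 and 54.5 CPM in CM+FB+MF. The CXCL3 interaction was 1.83 ± 0.20 (adjusted p = 5.24e-07), the CCL2 interaction 1.55 ± 0.25 (adjusted p = 7.42e-05) and the CCL20 interaction 3.38 ± 0.65 (adjusted p = 4.45e-04). The CXCL12 and CCL8 interactions missed the threshold in this comparison (adjusted p = 0.0710 and 0.0647).

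Cardiomyocytes with and without macrophages were compared on day 3. Of 11 tested members 3 were called, all higher with macrophages, where 12.7% of all 16046 genes were called, 6.79% higher and 5.88% lower. CXCL12 had 30.2, 22.8, 23.5 and 22.6 CPM in CM+FB and 38.0, 33.7, 39.0 and 40.7 CPM in CM+FB+MF. Each library with macrophages lay above each without, and CXCL12 rose by 0.59 ± 0.11 (adjusted p = 0.00206). ACKR3, the scavenging second receptor of CXCL12, had 1.24, 1.05, 2.34 and 1.43 CPM without and 2.25, 3.20, 4.46 and 4.60 CPM with macrophages, with 1 library of each group overlapping. ACKR3 rose by 1.23 ± 0.31 (adjusted p = 0.0185). The ACKR3 call was lost without CM+FB replicate 1 (adjusted p = 0.0576) or 4 (adjusted p = 0.0569) and without CM+FB+MF replicate 3 (adjusted p = 0.0561) or 4 (adjusted p = 0.0594). Fibroblast markers in these libraries summed to 4795, 2887, 2708 and 2375 CPM without and 4383, 2972, 6164 and 5609 CPM with macrophages, an overlapping range, and their part in both rises was not tested.

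CXCL16 had 0.182, 0.306, 0.106 and 0.220 CPM without and 0.511, 0.592, 1.39 and 2.38 CPM with macrophages, a rise of 2.47 ± 0.58 (adjusted p = 0.0126). The 18 macrophage markers summed to 8.81, 6.38, 7.15 and 7.45 CPM without and 34, 48.2, 51.1 and 84.7 CPM with macrophages, highest in the library with most CXCL16, and their part was not tested. CCL18 went from 2 counts in CM+FB to 28 in CM+FB+MF, 16.02 times higher (95% counting interval 4.04 to 139), with CM+FB+MF replicate 4 at 1.11 CPM as the highest library again. Without that library, which holds 14 of the 28 counts, CCL18 was 9.19 times higher (interval 2.11 to 83.3), and without CM+FB replicate 1 or 4 it was 24.2 or 24.3 times higher. CCR10, a receptor of CCL27 and CCL28 known from skin and mucosa, had 7.21, 3.77, 7.89 and 7.19 CPM without and 7.15, 12, 11.7 and 4.92 CPM with macrophages and was not called (adjusted p = 0.332). CX3CR1 had 1.78, 2.51, 1.77 and 1.69 and 2.08, 1.89, 1.91 and 2.30 CPM, CX3CL1 2.44, 1.56, 1.34 and 1.28 and 1.33, 2.29, 1.45 and 1.11 CPM, and ACKR2 1.02, 0.849, 0.849 and 1.25 and 2.42, 1.42, 1.87 and 0.873 CPM, each overlapping and not called. XCL1, a ligand known from lymphocytes, had 1.49, 1.02, 0.849 and 1.06 CPM without and 0.817, 0.513, 1.1 and 1.43 CPM with macrophages. Among lymphocyte markers, CD3D, CD79A, NKG7 and GNLY had group means of at most 0.208 CPM, and NCAM1, an adhesion molecule of nerve and muscle as well as natural killer cells, had 445 ± 20.2 CPM without and 471 ± 17.3 CPM with macrophages (SD, n = 4 each).

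**Figure D5:**
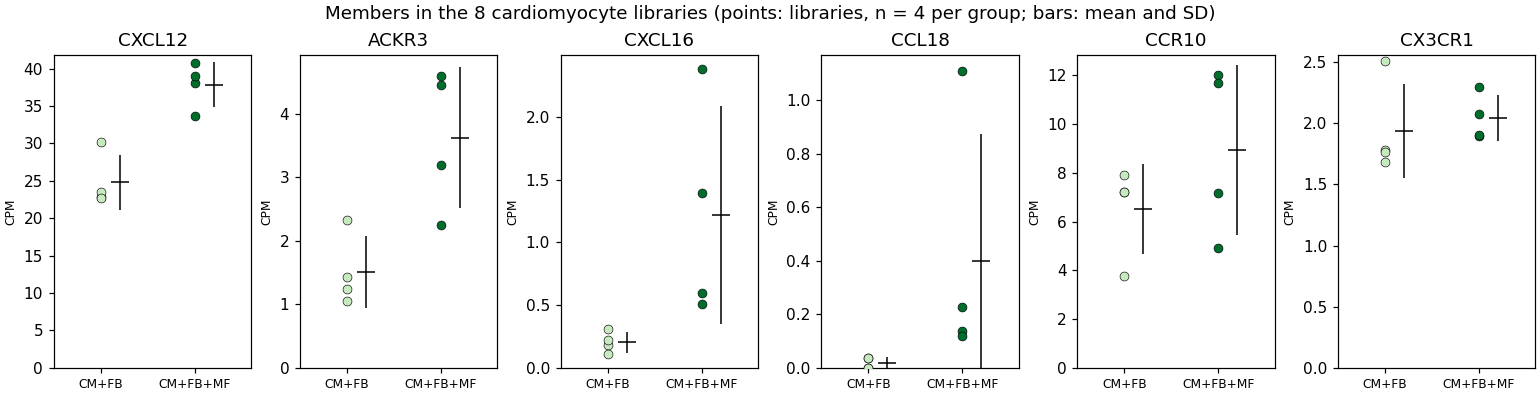
CPM of 6 members in the 8 cardiomyocyte libraries (points, 4 per group, with the mean and SD beside them). CXCL12 is at 22.6 to 30.2 CPM in CM+FB and 33.7 to 40.7 CPM in CM+FB+MF, and CXCL16 and CCL18 are highest in CM+FB+MF replicate 4, at 2.38 and 1.11 CPM.

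Genes that act with chemokines were counted from 4 lists. Of the 28 tested genes of receptor signalling, 12 rose and 4 fell in Biowire CM+FB+MF against MF, with a median of 0.31 against 0.00 over all genes, of which 17.8% were called higher and 19.8% lower. PLCB2, a phospholipase C downstream of G proteins, rose by 1.04 ± 0.17 and ADRBK1, a receptor kinase also named GRK2, by 0.84 ± 0.12, while the kinase FGR fell by 0.50 ± 0.14. In FB+MF against MF, where 4.03% of all genes were called higher and 2.14% lower, 3 rose and 1 fell, STAT3 by 0.49 ± 0.10 and JAK2 by -0.75 ± 0.20. Among 13 tested genes that cut or display chemokines, 1 rose and 4 fell in CM+FB+MF against MF, a share near the 37.6% of all genes called there. The protease MMP12 rose by 7.02 ± 0.30, and DPP4, which trims the amino end of CXCL10 and CXCL12, fell by 1.74 ± 0.10, with MMP2 at -2.88 ± 0.21. Of 19 regulators of chemokine genes, 4 rose and 5 fell against the same 37.6%, with NFKBIA at 0.52 ± 0.14 and TNFAIP3 at -0.66 ± 0.15, both inhibitors of NF-kB. Among 7 tested relatives named outside the rule, 4 rose and 2 fell against the same 37.6%, with the chemerin-binding CCRL2 at -2.66 ± 0.17, chemerin (RARRES2) at -3.38 ± 0.45 and its receptor CMKLR1 at 0.69 ± 0.14. In cardiomyocytes with macrophages the signalling list had 1 rise and 1 fall of 24 tested, and the regulators 4 rises and 1 fall of 16, where 12.7% of all genes were called, with IRF8, a factor of myeloid cells, at 2.86 ± 0.49.

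The remaining members were scarce. The 25 that stayed under 1 CPM in each group mean were CCL1, CCL7, CCL11, CCL14, CCL16, CCL21, CCL23, CCL26, CCL27, CXCL9, CXCL13, CXCL14, CXCL17, XCL2, CCR2, CCR3, CCR4, CCR6, CCR9, CXCR1, CXCR2, CXCR3, CXCR5, XCR1 and ACKR1. The highest of their group means was CCL23 at 0.95 CPM in Biowire FB+MF, followed by CCL21 at 0.876 CPM in CM+FB+MF cardiomyocytes. CXCR3, the receptor of CXCL10 and CXCL11, reached a mean of 0.129 CPM at most, CXCR2, the receptor of CXCL1 to CXCL3, 0.147 CPM and CCR6, the receptor of CCL20, 0.0198 CPM. These are low levels at this depth and do not show absence. CXCR6, the receptor of CXCL16, had 2.18, 1.32 and 1.26 CPM in Biowire MF, 0, 1.69 and 2.16 CPM in FB+MF and 0.539, 0.995 and 1.15 CPM in CM+FB+MF, and was not called.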

How the data were processed

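Total RNA of 26 libraries from 8 groups was sequenced, and the authors deposited raw counts per gene in 3 tables. Reads were aligned with STAR 2.7.9a to hg19 and counted with HTSeq 0.11.0, per the submitters' processing notes, which do not give the strand setting. From the counts, edgeR 4.0.16 (R 4.3.3) was run on each table with TMM normalization, filterByExpr and quasi-likelihood tests over all groups of the table, adjusted by Benjamini-Hochberg. The Biowire and digested tables were merged over 17919 shared genes for comparisons of setting. CPM divide by the total count. The procedure was tested on simulated data. Named members are those called within a table with a mean of at least 5 CPM in a group, plus a few at 1 CPM or more to complete a role. Members, lists and tests were chosen with earlier results of these data known. Replicate numbers were not taken to pair libraries, by the check described with the processing alternatives. No 2 replicates agreed within sampling noise. Promoter sequences are from RefSeq (GRCh38.p14). Results were recomputed with DESeq2 1.42.0, with size factors by RLE, without the filter, with a minimum log2 fold change of 1, with a replicate block, from the compared groups alone, and without each library in turn. A few genes that enter the counts are not reported here by name.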

Additional observations from a re-analysis of the deposited data

Results flagged for a closer look

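The difference between cell combinations was not the same in the Biowire and digested settings for named members, by edgeR's interaction test with adjusted p of at most 0.05. Values are log2 differences, positive where the change was more upward in the Biowire. For FB+MF against MF they were 1.13 for CCL2, 0.66 for CXCL16, -2.08 for CCL5, -4.26 for CCR7 and -5.51 for CXCL10. For the last 3, replicates 2 and 3 are the highest of Biowire MF. Its replicate 1 held 2.78, 2.66 and 6.53 CPM of CCL5, CCR7 and CXCL10, against at most 3.06, 0.722 and 4.10 CPM in Biowire FB+MF. For CM+FB+MF against MF the upward ligands were CCL20 (3.38), CCL4L2 (1.84), CXCL3 (1.83), CCL2 (1.55), CCL3L1 (0.92), CXCL16 (0.58) and CXCL2 (0.46). The receptor CCR1 was upward as well (0.66). In the same comparison CCL18 (-5.17), CXCL10 (-4.92), CCL5 (-2.37), CXCR4 (-1.35) and CCR7 (-9.51) were downward. For CM+FB+MF against FB+MF, CCL20 (3.33), CCL4L2 (3.18), CCL3L1 (1.81), CXCL3 (1.63), CXCL2 (0.61) and CCR1 (0.33) were upward. CCL18 (-4.75), CXCR4 (-1.87), CCL13 (-1.23) and CCR7 (-5.25) were downward. CCR7 had 0 counts in Biowire CM+FB+MF, so its last 2 values depend on the prior count of the fit and are no bounds. The 3 comparisons share libraries and are not independent.

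In CM+FB cardiomyocytes 1 of 4 libraries stood apart from the others for CXCL12 (gap over range 0.887, replicate 1 high), CX3CR1 (0.883, replicate 2 high) and CCR10 (0.83, replicate 2 low), above Dixon's 95% critical value for 4 samples. Chance flags about 1 in 20 such groups.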

How the results depend on the processing

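No alternative reversed a called member. With a minimum log2 fold change of 1, members called were 2, 6 and 5 in the Biowire comparisons (FB+MF against MF, CM+FB+MF against MF, CM+FB+MF against FB+MF), 1, 1 and 0 in the digested comparisons in the same order, 0 in cardiomyocytes, 13 (MF), 17 (FB+MF) and 15 (CM+FB+MF) for Biowire against digested cells, and 2, 7 and 6 for the interactions in the same order. Leaving out 1 library gave 3 to 9, 14 to 18 and 9 to 12 in the Biowires, 1 to 2, 2 to 3 and 0 to 0 in the digested comparisons, 2 to 3 in cardiomyocytes, 19 to 21, 22 to 23 and 21 to 24 for setting in MF, FB+MF and CM+FB+MF, and 5 to 8, 14 to 19 and 9 to 13 for the interactions. Over single members, leaving out a library ended 115 calls, made 19 and left the other 1744 results on the same side of the threshold. DESeq2 ended 3 calls and made 4, the fit of the compared groups alone ended 4 and made 4, the fit without the low-count filter ended 2 and made 2, and RLE size factors ended 1 and made 0. Those not given with their gene are CCR1 in CM+FB+MF Biowire against digested (compared groups alone, adjusted p = 0.0615) and CXCL3 in digested FB+MF, which then passed (adjusted p = 0.0335). Among interactions for FB+MF against MF, CCL18 (adjusted p = 0.0341), CCL3L1 (0.0189) and CCL4L2 (0.0201) passed with DESeq2 and CCL18 (0.0378) with the compared groups alone. For CM+FB+MF against FB+MF, CXCL8 passed without the filter (0.0483) and with the compared groups alone (0.0191), and CCR1 was lost without the filter (0.0647).

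Same-numbered libraries had correlated deviations of 0.00311 to 0.229 in the Biowires, -0.205 to 0.298 in the digested controls and -0.138 to 0.186 in cardiomyocytes, so the numbers were not taken to pair them. A fit with the replicate block kept 0 members called in digested CM+FB+MF against FB+MF. It ended 11 calls and made 1, the CCL4L2 interaction for FB+MF against MF (adjusted p = 0.0458). The ended calls were CCL5 (adjusted p = 0.0949) and CXCL5 (0.0531) in Biowire FB+MF against MF, CCL8 (0.072) and CXCL12 (0.0553) in CM+FB+MF against MF, CCL13 (0.0615) and CXCL8 (0.0501) in CM+FB+MF against FB+MF, CXCL3 in digested CM+FB+MF (0.0758), and the interactions of CCL5 (0.0558) and CXCL5 (0.0554) for FB+MF against MF and of CCL13 (0.0713) and CCR1 (0.0593) for CM+FB+MF against FB+MF.

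Depth limits the scarce members, of which 24 had too few counts for a test.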
